A study of Mus musculus with 16 samples.

Results

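The 34 genes described here mark B cells, germinal centre B cells and plasma cells, and they were read from the ileal whole wall of diabetic mice. They were chosen by name: each is a gene listed by its symbol in all 16 deposited tables, out of 41740 genes listed in each. By role, 11 belong to the antigen receptor complex and the B cell surface, 5 to signalling and its inhibition, 7 to positioning and survival, 6 are transcription factors of B and germinal centre cells, and 5 mark plasma cells. Of the 34, 33 passed the filter on low counts and were tested among 15267 genes. Mef2b did not pass.

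All mice were male, on a C57BL/6J background, and had STAM, a diabetes with fatty liver disease made with 200 µg of streptozotocin per head at 2 days of age and a high-fat diet from 4 weeks. Control-STAM-nonINS mice (n = 4) carried the floxed insulin receptor allele without Villin-Cre (spelled Vilin-Cre in the labels) and received saline. Control-STAM-INS mice (n = 6) had the same genotype and received the long-acting insulin degludec from 6 weeks of age, 2 times a day, raised by glucose to at most 12 U/kg. ieIRKO-STAM-INS mice (n = 6) carried Villin-Cre with the floxed allele and received the same insulin. The Villin promoter drives Cre in the intestinal epithelium, whereas B and plasma cells are outside it. Total RNA was taken at 20 weeks. Insr, the targeted gene, had a median of 63.7 CPM (counts per megaread, scaled by the normalized library total) in Control-STAM-INS and 60.5 in the libraries labelled ieIRKO-STAM-INS, after 108 in Control-STAM-nonINS. In the whole wall, where cells outside the epithelium also count, no reduction was seen between the 2 insulin-treated groups. Its log2 fold change between them was 0.10 (standard error, SE, 0.13, edgeR adjusted p = 0.805). Paneth cells are an epithelial type. Their summed markers without the defensins were 781 to 1453 CPM in the 6 ieIRKO-STAM-INS libraries. The 10 controls had 2302 to 4820, with no overlap. Lyz1 alone ran from 362 to 3367 CPM across libraries, and the markers did not all move. Against Control-STAM-INS, 3 of the 6 were lower at an edgeR adjusted p under 0.05 (0.183% of all tested genes). Against Control-STAM-nonINS 2 of the 6 were (7.59% of genes), and 2 had a positive fold change.

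The ileum holds 2 kinds of B lineage tissue. Peyer's patches and isolated follicles contain naive B cells around germinal centres, where B cells compete for antigen shown by follicular dendritic cells and for help from T cells. Plasma cells lie scattered in the lamina propria between the crypts and secrete IgA, which is joined into dimers by the J chain. A B cell that becomes a plasma cell loses the surface receptors and transcription factors of the follicle, such as Ms4a1 and Pax5, and gains secretory genes such as Mzb1. In a bulk sample of the wall, fewer cells of a type and less RNA per cell cannot be told apart.

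The authors counted 13288018 to 22215382 reads per library. The replicate libraries correlated with each other and with the other groups at 0.947 to 0.985 on the log2 scale, and no pair of tables was identical. Immunoglobulin genes themselves were of little use in these tables: 258 of the 262 rows named for immunoglobulin segments were at 0 in every library, including Ighm, Igha and Igkc, although Jchain was abundant. The exceptions included Iglc2, a lambda light chain constant region, at 12.8 to 123 CPM. The T cell receptor row Trac was also listed at 0. How reads on these segments were treated is not stated in the sources used here, so isotype could not be described. Exons of 9 members share bases with another annotated gene, 2 of them on the same strand (Mef2b with Borcs8, and Mzb1 with SPATA24). The other 7 are Cd22, Cd37, Cd72, Cxcr5, Pax5, Bcl11a and Bcl6. The library kit keeps the strand, but whether counting used it is not stated.

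Per kilobase of annotated exon, which allows levels of different genes to be set side by side, Jchain led in every group, with a median of 388 CPM per kilobase in untreated controls, 493 in insulin-treated controls and 763 in ieIRKO-STAM-INS. Mzb1, a chaperone of antibody secretion, and Cd79a, a signalling chain of the antigen receptor, came next. Mzb1 had 12.6 and Cd79a 7.19 CPM per kilobase in Control-STAM-INS. Mef2b, Pax5 and Bank1 were among the lowest 4 in all groups, at most 0.271 CPM per kilobase.

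A pair of libraries stood apart for most members. ieIRKO-STAM-INS replicates 2 and 3 were the highest and second highest of all 16 libraries for 28 of the 34 members (82.4%), against 706 of the 15267 tested genes (4.62%). The antigen receptor and surface group did so for 11 of 11 members and the signalling group for 5 of 5. The positioning group did so for 6 of 7, the transcription factors for 5 of 6, and the plasma cell group for 1 of 5 (Irf4). The 6 members that did not follow were S1pr2, Bcl6, Mzb1, Jchain, Prdm1 and Tnfrsf17. The spread within the ieIRKO-STAM-INS group was accordingly wide: the median SD of log2 CPM over the 33 tested members was 1.40, against 0.34 in Control-STAM-INS and 0.49 in Control-STAM-nonINS, where over all tested genes it was 0.25, 0.19 and 0.24. Results for the members below are given with and without these 2 libraries. They were noticed in the data and leaving them out was chosen after seeing it. They are not a group of the study.

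**Figure D1:**
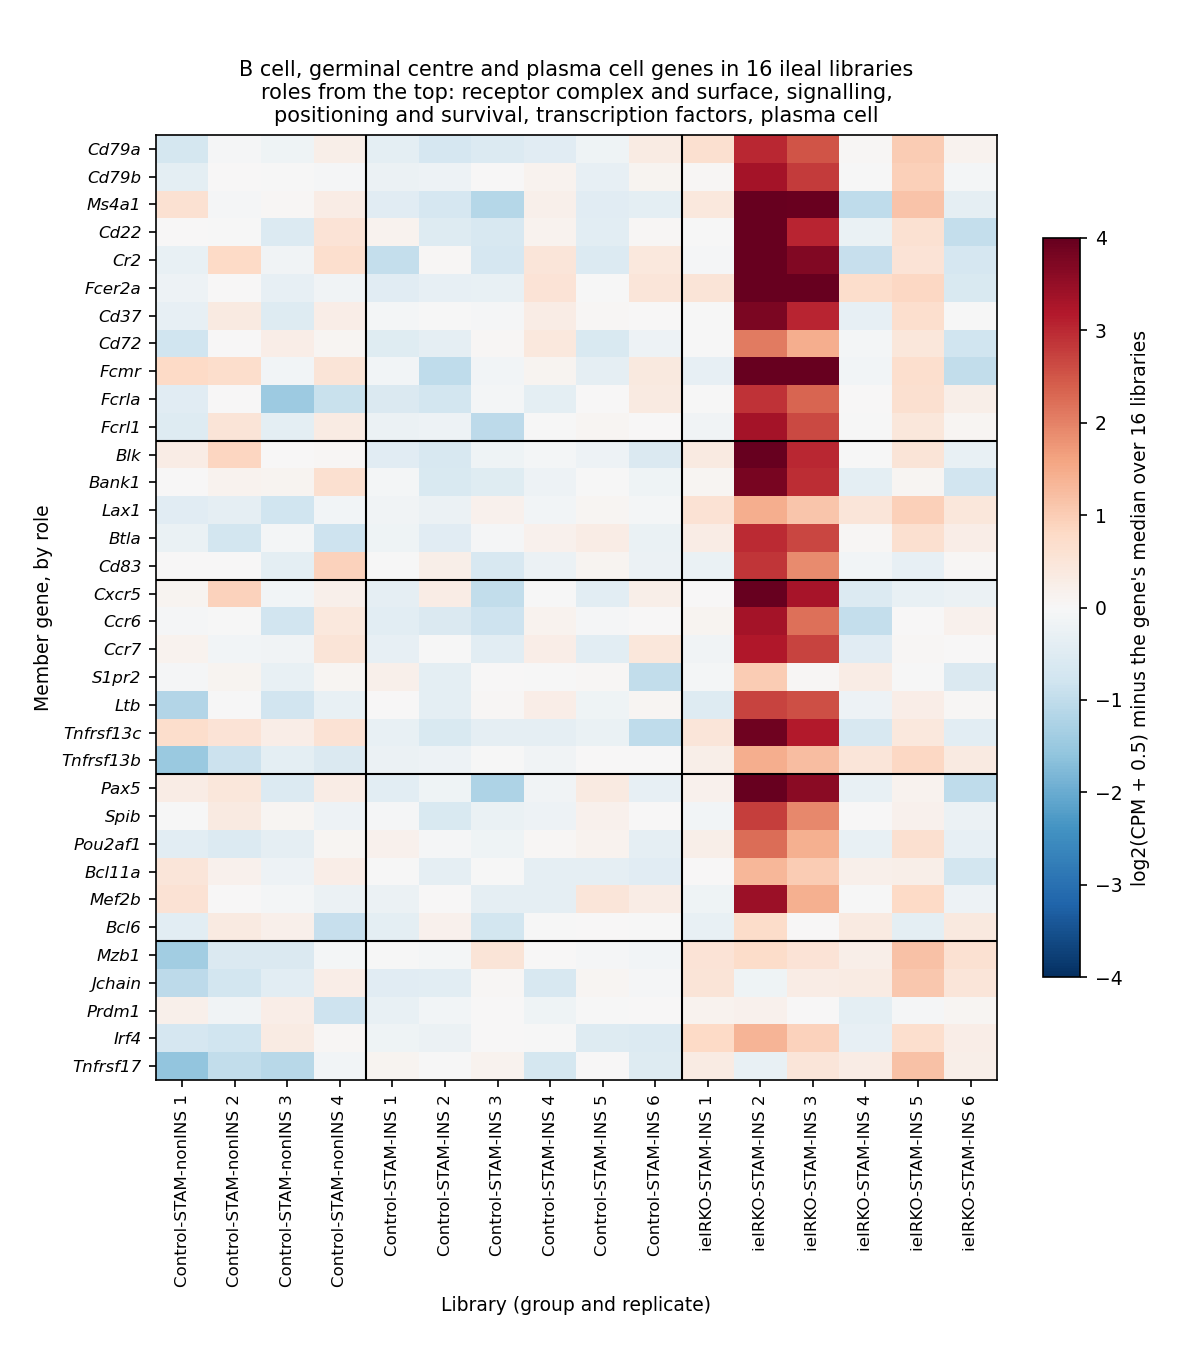
Each row is a member gene and each column a library, coloured by log2(CPM + 0.5) minus the gene's median over the 16 libraries, with colours capped at 4. The 2 dark columns are ieIRKO-STAM-INS replicates 2 and 3, which held the 2 highest values for 28 of 34 members, whereas the plasma cell rows at the bottom do not share them except for Irf4.

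All 11 genes of the antigen receptor complex and surface were higher in these 2 libraries than in any other. Replicate 2 stood 4.52-fold to 51.0-fold above the median of the other 14 libraries over the 11 genes, and replicate 3 2.91-fold to 35.9-fold. Even the lower of the pair exceeded the highest of the other 14 by 2.03-fold (Cd72) to 13.9-fold (Fcer2a).

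Cd79a (chr7:24897381-24902197, GRCm38) encodes one of the chains that signal for the antigen receptor, and it is kept in plasma cells. It had 8.64, 13.9, 12.6 and 16.9 CPM in the Control-STAM-nonINS libraries, 8.79 to 18.0 with a median of 10.5 in Control-STAM-INS, and 14.7 to 119 with a median of 25.8 in ieIRKO-STAM-INS. Replicates 2 and 3 of the last group had 119 and 84.1 CPM, but 4 of its 6 libraries lay above all Control-STAM-INS libraries. Its partner Cd79b followed with 4.96, 6.66, 6.54 and 6.43 CPM in Control-STAM-nonINS, 5.23 to 7.31 with a median of 6.18 in Control-STAM-INS, and 6.23 to 70.7 with a median of 10.1 in ieIRKO-STAM-INS. Only replicates 2, 3 and 5 of ieIRKO-STAM-INS, at 70.7, 48.8 and 13.3 CPM, exceeded all Control-STAM-INS libraries.

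Ms4a1 (CD20), which disappears when B cells become plasma cells, was rare in the control libraries. It had 3.21, 1.88, 2.01 and 2.54 CPM in Control-STAM-nonINS and 0.599 to 2.30 (median 1.29) in Control-STAM-INS. In ieIRKO-STAM-INS it ranged from 0.716 to 80.3 (median 3.83), with 80.3 and 37.4 CPM in replicates 2 and 3 and at most 4.88 in the other 4.

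Cr2 (chr1:195136811-195176716), the complement receptor of mature B cells and follicular dendritic cells, had 1.07, 2.82, 1.23 and 2.58 CPM in Control-STAM-nonINS and 0.503 to 2.17 (median 1.15) in Control-STAM-INS. Replicates 2 and 3 of ieIRKO-STAM-INS had 66.1 and 24.8 CPM, while the other 4 libraries of that group, 0.521 to 2.31, lay within the range of the controls. Fcer2a (CD23, chr8:3681737-3694175), the low-affinity IgE receptor of follicular B cells, had 0.469, 0.627, 0.392 and 0.525 CPM in Control-STAM-nonINS, 0.3203 to 1.12 (median 0.515) in Control-STAM-INS and 0.235 to 26.02 (median 1.39) in ieIRKO-STAM-INS. For Fcer2a, 5 of the 6 ieIRKO-STAM-INS libraries exceeded all 4 Control-STAM-nonINS libraries and 1 lay below them.

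Fcrla, an Fc receptor-like protein kept inside B cells, had 1.81, 2.74, 0.671 and 1.22 CPM in Control-STAM-nonINS, 1.41 to 3.57 (median 2.21) in Control-STAM-INS and 2.66 to 23.0 (median 3.84) in ieIRKO-STAM-INS. The other surface members were Cd22 and Cd72, inhibitory receptors, the tetraspanin Cd37, the IgM receptor Fcmr and the Fc receptor-like Fcrl1. They lay between 0.157 and 15.7 CPM in the 14 other libraries and between 10.4 and 84.6 CPM in the pair.

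The signalling members followed the pair too, with medians of 9.70-fold in replicate 2 and 7.74-fold in replicate 3 over the median of the other 14 libraries. Blk, a Src family kinase of B cells, had 1.67, 2.67, 1.29 and 1.31 CPM in Control-STAM-nonINS, 0.628 to 1.19 (median 0.898) in Control-STAM-INS and 0.940 to 28.1 (median 1.88) in ieIRKO-STAM-INS. Bank1, a scaffold of antigen receptor signalling, had 1.47, 1.65, 1.62 and 2.54 CPM in Control-STAM-nonINS, 0.785 to 1.43 (median 1.203) in Control-STAM-INS and 0.646 to 26.5 (median 1.57) in ieIRKO-STAM-INS. Both were lower in every Control-STAM-INS library than in every Control-STAM-nonINS library, as were 6.23% of all tested genes. Neither was called in edgeR.

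Btla, an inhibitory receptor of B and T cells, had 2.21, 1.49, 2.57 and 1.36 CPM in Control-STAM-nonINS, 1.88 to 3.53 (median 2.54) in Control-STAM-INS and 2.87 to 25.5 (median 4.05) in ieIRKO-STAM-INS. Every ieIRKO-STAM-INS library exceeded every Control-STAM-nonINS library. Cd83, a marker of activated B cells and dendritic cells, had 3.29 to 10.8 CPM in the 14 other libraries and 42.6 and 21.8 in the pair.

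Lax1 (chr1:133679091-133690108), an adaptor that restrains lymphocyte receptor signalling, behaved differently from its group. It had 7.37, 7.92, 5.70 and 9.53 CPM in Control-STAM-nonINS, 8.71 to 11.6 (median 9.58) in Control-STAM-INS and 14.2 to 29.2 (median 18.0) in ieIRKO-STAM-INS. Replicates 2 and 3 were again highest, at 29.2 and 22.9 CPM, yet the other 4 libraries of the group, 14.2 to 20.6, also lay above all 10 controls.

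Among the genes of positioning, Cxcr5, the receptor that draws B cells into follicles, had 1.21, 2.51, 0.951 and 1.31 CPM in Control-STAM-nonINS, 0.299 to 1.41 (median 0.893) in Control-STAM-INS and 0.586 to 32.9 (median 0.956) in ieIRKO-STAM-INS. Apart from replicates 2 and 3, at 32.9 and 14.8 CPM, the group reached 1.09. S1pr2 holds germinal centre B cells in place but is also made by vessels and stroma. Its group medians were close, with wider ranges within groups. It had 3.75, 4.23, 3.08 and 4.07 CPM in Control-STAM-nonINS (median 3.91). It had 1.71 to 4.48 (median 3.86) in Control-STAM-INS and 2.41 to 8.36 (median 3.89) in ieIRKO-STAM-INS. Its highest value, 8.36, was in replicate 2, and replicate 3 had 4.00. The chemokine receptors Ccr6 and Ccr7 and the lymphotoxin gene Ltb lay between 0.1302 and 6.65 CPM in the 14 other libraries and between 5.17 and 38.1 CPM in the pair.

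Of the receptors of the survival factors BAFF and APRIL, Tnfrsf13c and Tnfrsf13b had opposite directions after insulin, and neither was called in edgeR. Tnfrsf13c (BAFF receptor), the one on which follicular B cells depend, had 2.88, 2.51, 2.01 and 2.58 CPM in Control-STAM-nonINS, 0.537 to 1.22 (median 1.13) in Control-STAM-INS and 0.847 to 30.3 (median 2.35) in ieIRKO-STAM-INS. None of the insulin-treated control libraries, at 11 to 26 counts each, reached the lowest untreated one. The same held for 6.23% of all tested genes. Tnfrsf13b (TACI, chr11:61126755-61149372), which is found on activated B cells and plasma cells, went the other way, with 2.75, 4.55, 6.49 and 5.64 CPM in Control-STAM-nonINS, 7.23 to 8.74 (median 8.20) in Control-STAM-INS and 10.3 to 24.7 (median 14.03) in ieIRKO-STAM-INS. For Tnfrsf13b the 3 groups did not overlap at all.

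Among the transcription factors, Pax5, Spib, Pou2af1 and Bcl11a were highest in the pair. Pax5, the factor that fixes B cell identity, had 47.7 and 20.5 CPM there and at most 1.88 in the other 14 libraries. Spib, an ETS factor of B cells and also of M cells, had 58.0 and 31.9 CPM against 5.18 to 10.7. Mef2b, a factor of germinal centre B cells, had 94 and 20 counts in replicates 2 and 3. Its counts were 7, 2, 2 and 1 in Control-STAM-nonINS, 0 to 6 among Control-STAM-INS libraries and 1 to 12 among the other ieIRKO-STAM-INS libraries. Bcl6, the master factor of germinal centres that many other ileal cells also express, had 10.9, 18.7, 16.8 and 7.48 CPM in Control-STAM-nonINS, 8.68 to 16.6 (median 14.5) in Control-STAM-INS and 10.96 to 24.9 (median 16.9) in ieIRKO-STAM-INS. The groups overlapped for Bcl6, and only replicate 2, at 24.9 CPM, stood above the rest.

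**Figure D2:**
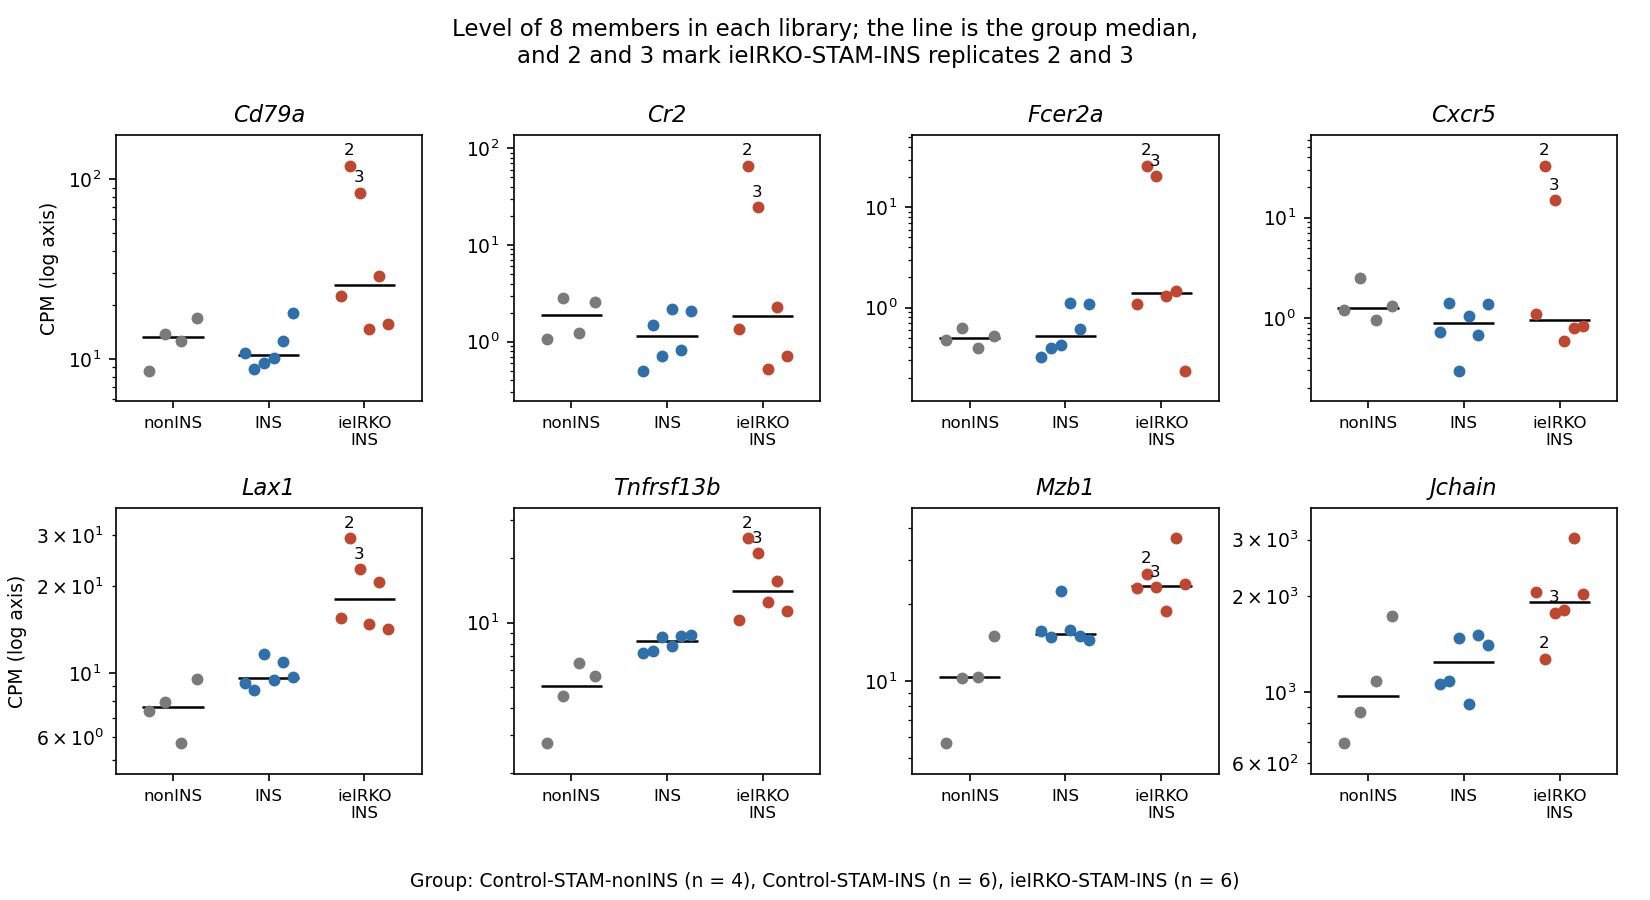
CPM on a log axis of 8 members in each library, with the group median as a line and the 2 numbered points marking ieIRKO-STAM-INS replicates 2 and 3. In the upper row these points carry the difference for Cr2 and Cxcr5, with medians of 1.83 and 0.956 CPM in ieIRKO-STAM-INS, while in the lower row the whole group lies high for Lax1 and Tnfrsf13b, at medians of 18.0 and 14.03 CPM.

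Of the 5 plasma cell members, Jchain, Mzb1 and Tnfrsf17 had medians that were lowest in Control-STAM-nonINS and highest in ieIRKO-STAM-INS. The 2 control groups were close for Irf4, and all 3 groups for Prdm1. Jchain (chr5:88519809-88527891), which links IgA into dimers, had 693, 870, 1082 and 1727 CPM in Control-STAM-nonINS, 920 to 1505 (median 1242) in Control-STAM-INS and 1275 to 3027 (median 1919) in ieIRKO-STAM-INS. The lowest library of the last group was replicate 2 and the highest replicate 5, and the other 5 all exceeded every Control-STAM-INS library. Mzb1 had 5.69, 10.3, 10.4 and 14.9997 CPM in Control-STAM-nonINS, 14.5 to 22.6 (median 15.4) in Control-STAM-INS and 18.8 to 36.3 (median 23.7) in ieIRKO-STAM-INS. Its levels in ieIRKO-STAM-INS all exceeded those in Control-STAM-nonINS, and replicate 5 was again highest. Summed enterocyte markers ran the other way, with medians of 31522 CPM in untreated controls, 27357 in insulin-treated controls and 21208 in ieIRKO-STAM-INS, although the 3 groups overlapped. Replicate 5 was the lowest of all 16 libraries at 10145 CPM, and the next lowest had 19300. The part of enterocytes in the plasma cell values was not tested.

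Tnfrsf17 (BCMA), the APRIL receptor of plasma cells, had 0.469, 0.941, 0.839 and 2.14 CPM in Control-STAM-nonINS, 1.25 to 2.64 (median 2.36) in Control-STAM-INS and 1.82 to 5.93 (median 3.03) in ieIRKO-STAM-INS, where replicate 2 was lowest and replicate 5 highest. Irf4, a factor needed for plasma cells and also used by activated B and T cells, had 4.96, 4.55, 10.4 and 8.61 CPM in Control-STAM-nonINS, 5.47 to 8.26 (median 7.11) in Control-STAM-INS and 6.45 to 22.2 (median 13.9985) in ieIRKO-STAM-INS. Prdm1 (Blimp-1), the repressor that drives plasma cell formation but is also made in the gut epithelium, differed little. It had 19.8, 15.2, 20.7 and 9.31 CPM in Control-STAM-nonINS, 13.6 to 17.1 (median 16.3) in Control-STAM-INS and 12.9 to 19.3 (median 17.5) in ieIRKO-STAM-INS.

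Promoters of the members were searched for shared letters, whether or not a member was high in the pair. RefSeq promoter entries of GRCm38.p6 were found for 27 of the 34, and the 250 bases before each start were searched on both strands for 5 motifs of 8 letters. The octamer ATGCAAAT, bound by the Oct factors that work with the product of Pou2af1, was found in 2 members (Mef2b and Ccr6) and in 1.81% of all genes with an entry. An ETS motif of the kind bound by PU.1 and Spi-B, GAGGAAGT, was found in 4 members (Fcrl1, Cd72, Cd37 and Btla) and in 2.79% of all genes. The MEF2-type TAAAAATA was in 1 member (Fcer2a) and 2.84% of genes, while a PRDM1-type GAAAGTGA (1.41%) and a BCL6-type TTCCTAGA (1.29%) were in none. The 4 windows that touch no annotated exon are printed in the direction of the gene, with the motif in capitals, to show its place before the start. The motif in Ccr6, Fcrl1 and Cd72 is the reverse complement. In order they are chr8:70152646-70152713 (plus strand), chr17:8235945-8236012 (plus), chr3:87376342-87376386 (plus) and chr4:43454638-43454705 (minus), with the motif ending 77, 60, 7 and 41 bases before the RefSeq start. The Mef2b start lies inside the longer GENCODE span of that gene.
Mef2b: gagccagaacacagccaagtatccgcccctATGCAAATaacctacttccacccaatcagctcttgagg
Ccr6: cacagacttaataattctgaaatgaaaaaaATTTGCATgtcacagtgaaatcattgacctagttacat
Fcrl1: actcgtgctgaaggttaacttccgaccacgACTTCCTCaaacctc
Cd72: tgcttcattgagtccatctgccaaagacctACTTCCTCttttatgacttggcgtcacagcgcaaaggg

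These are matches of letters only. All 4 genes were highest in replicates 2 and 3, at 6.34 and 1.23 CPM for Mef2b, 11.9 and 5.17 for Ccr6, 17.1 and 10.4 for Fcrl1, and 49.5 and 31.8 for Cd72. The other members with a motif, Cd37, Btla and Fcer2a, were highest there too, as were most members in which none of the 5 motifs was found.

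The first comparison asked what insulin changed in mice of the control genotype. Of the 33 tested members, 0 were higher and 0 lower after insulin, among the control genotype, at an adjusted p under 0.05 in edgeR, where 3.73% of all tested genes were higher and 6.76% lower. At an unadjusted p under 0.05 there were 3 members (Tnfrsf13b, Mzb1 and Tnfrsf17, all higher), where 10.8% of genes were higher. DESeq2, which tested all 34 members, called 2 (Tnfrsf13b and Mzb1, both higher), where it called 4.96% of genes. Fold changes ran from -1.30 for Tnfrsf13c to 0.90 for Tnfrsf17 on the log2 scale, with a median of -0.13 against -0.0043 for all tested genes.

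Tnfrsf13b was the 1 member with every insulin-treated library above every untreated one, against 4.4% of all tested genes. Its log2 fold change was 0.72 (SE 0.25, edgeR adjusted p = 0.0737, exact permutation p = 0.00476, the smallest that 4 against 6 libraries allow). Without the ieIRKO-STAM-INS libraries in the fit its adjusted p was 0.0253. Tnfrsf13c, Blk and Bank1 were the 3 with every treated library below every untreated one, against 6.23% of all tested genes. Their log2 fold changes were -1.30, -0.93 and -0.68, with adjusted p = 0.410, 0.581 and 0.710 in edgeR. In the fit of the 2 groups alone, where the wide spread of ieIRKO-STAM-INS does not enter, Tnfrsf13c had an adjusted p of 0.00657. Summed markers of follicular dendritic and lymphoid stromal cells were lower in the same libraries, at 140 to 183 CPM after insulin and 207 to 249 without it, and did not overlap. All 7 tested genes of that list had a negative fold change (median -0.56 on the log2 scale) and 0 were called. Its part in the values of Tnfrsf13c, Blk and Bank1 was not tested. Mzb1 had a log2 fold change of 0.66 (SE 0.22, edgeR adjusted p = 0.0646) and Tnfrsf17 of 0.90 (SE 0.38, adjusted p = 0.141), with 4 of 6 treated libraries above all untreated ones for each. Jchain, at 0.18 (SE 0.24, adjusted p = 0.694), overlapped throughout. Without Control-STAM-nonINS replicate 4, in a fit that tested 34 members, 2 were called.

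The second comparison asked how the libraries labelled ieIRKO-STAM-INS differed from Control-STAM-INS, both with insulin. All 33 members had a positive fold change, with a median of 1.91 on the log2 scale against 0.017 for all tested genes, and the range ran from 0.10 (Prdm1) to 4.01 (Ms4a1). However, 1 of 33 was called higher, Lax1, where 0.0393% of all tested genes were, and 0 were called lower (0.183% of genes). At an unadjusted p under 0.05 there were 30 members, all higher, where 7.38% of all tested genes were. DESeq2 called 15 of 34 higher, where it called 0.42% of genes. Lax1 rose by 0.97 on the log2 scale (SE 0.17, edgeR adjusted p = 0.0108, higher in 6 of 6 libraries, exact permutation p = 0.00216, the smallest that 6 against 6 allow).

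Lax1 and Tnfrsf13b were the 2 members whose libraries did not overlap, against 0.439% of all tested genes. Tnfrsf13b had a log2 fold change of 0.98 (SE 0.21, edgeR adjusted p = 0.0853). Large fold changes went with large errors. Ms4a1 had 4.01 (SE 1.04, adjusted p = 0.245), Cr2 3.62 (SE 1.12, adjusted p = 0.2998) and Cxcr5 3.19 (SE 1.00, adjusted p = 0.301), with exact permutation p of 0.0606, 0.271 and 0.253. Cd79a, at 2.02 (SE 0.50, adjusted p = 0.217), had an exact permutation p of 0.00649. The plasma cell members had smaller values with smaller errors: 0.68 for Jchain (SE 0.22, adjusted p = 0.2998), 0.63 for Mzb1 (SE 0.19, adjusted p = 0.290), 0.99 for Irf4 (SE 0.26, adjusted p = 0.210) and 0.67 for Tnfrsf17 (SE 0.31, adjusted p = 0.430).

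Without replicates 2 and 3 of ieIRKO-STAM-INS, 0 of 33 members were called in edgeR, against 0.0328% of genes higher, and 10 were higher at an unadjusted p under 0.05, against 3.82% of genes. The median log2 fold change fell to 0.22, and 28 of 33 remained positive. By role, medians were 0.38 over the 11 surface members, 0.43 for signalling, 0.07 for positioning and 0.14 for transcription factors. Values ranged from -0.17 for Cxcr5 to 0.90 for Ms4a1 (SE 0.42, edgeR adjusted p = 0.751), with 0.72 for Blk, 0.70 for Tnfrsf13c, 0.62 for Fcer2a, 0.13 for Pax5 and -0.076 for Cr2. Cd79a went from 2.02 with all libraries to 0.80 (SE 0.23, edgeR adjusted p = 0.490), and Tnfrsf13b from 0.98 to 0.61 (SE 0.18, adjusted p = 0.470). Lax1 went from 0.97 to 0.70 (SE 0.14, edgeR adjusted p = 0.0841) and was no longer called. Jchain had 0.83, Tnfrsf17 0.81, Irf4 0.67 and Mzb1 0.63, with a median of 0.67 over the 5 plasma cell members, which was 0.67 with all libraries. S1pr2, Bcl6 and Prdm1 had 0.07, 0.19 and 0.05.

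**Figure D3:**
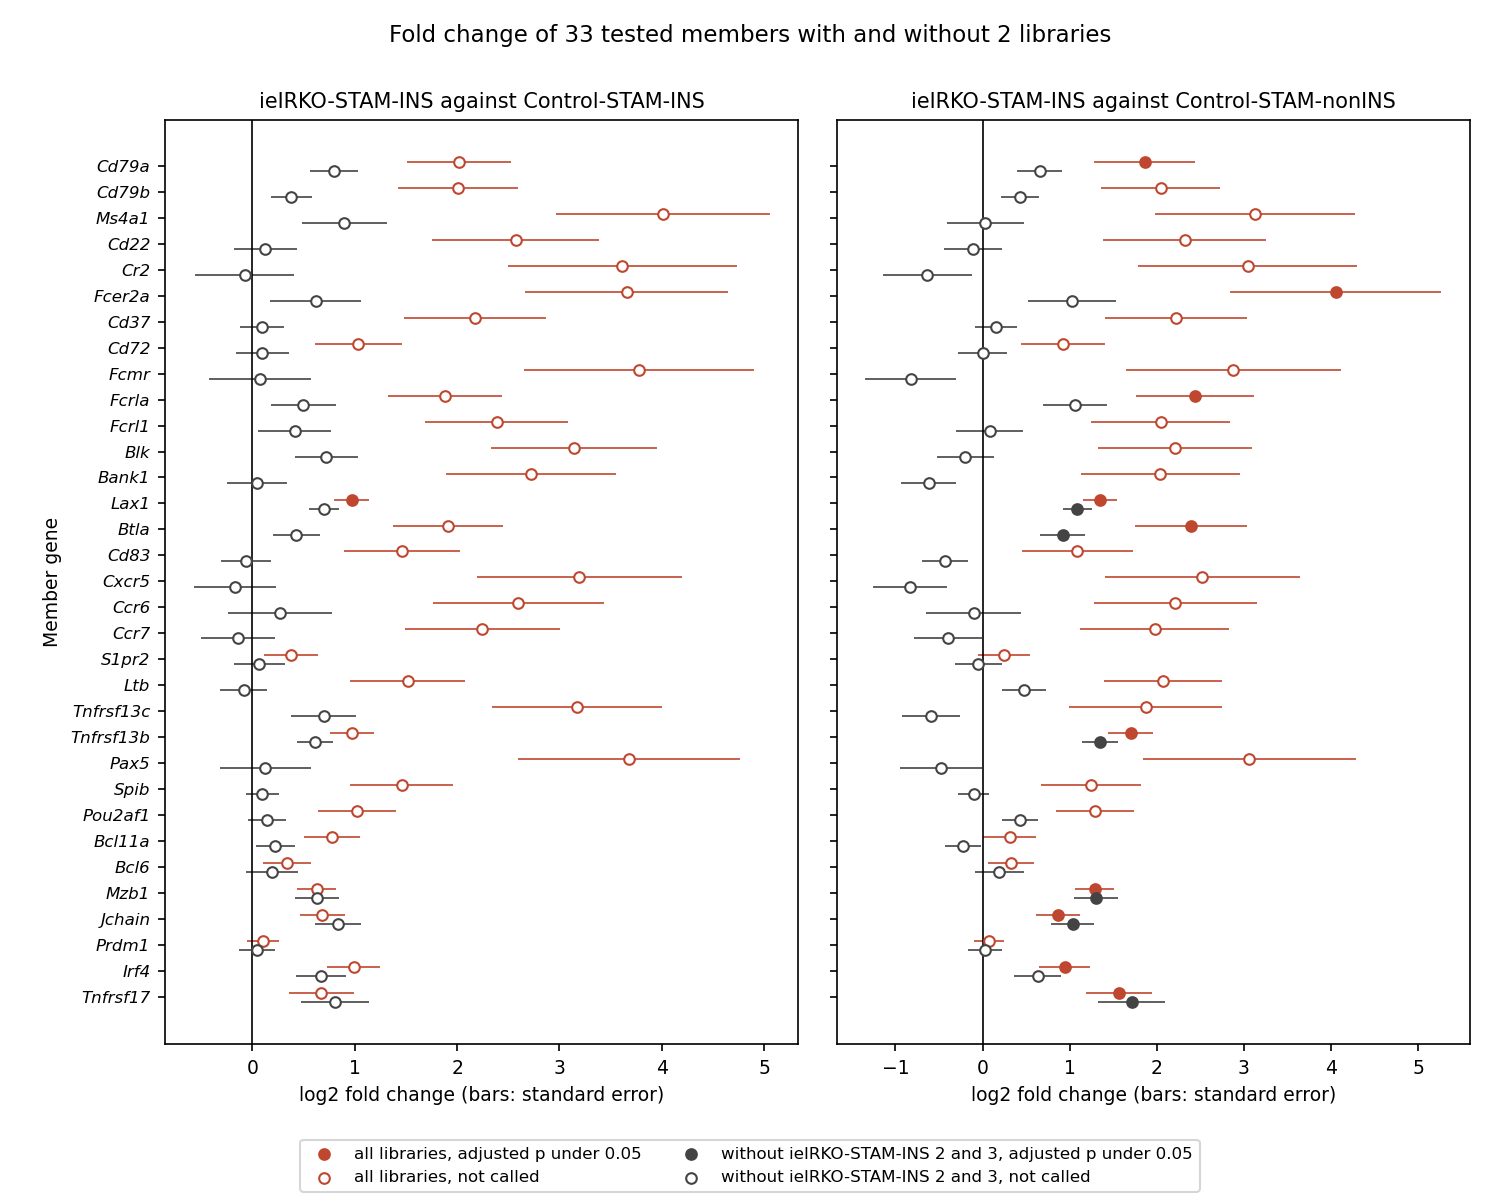
Log2 fold change of the 33 tested members with its SE, with ieIRKO-STAM-INS set against the insulin-treated controls (left) and the untreated controls (right), with all libraries and without ieIRKO-STAM-INS replicates 2 and 3. Filled points have an adjusted p under 0.05. On the left the median moves from 1.91 to 0.22 and the 1 filled point is Lax1. On the right 10 members are filled with all libraries and 6 without the pair.

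The third comparison, ieIRKO-STAM-INS against Control-STAM-nonINS, differs in genotype label and in insulin together, and it shares libraries with both comparisons above. Here 10 of 33 members were called higher, where 5.74% of all tested genes were, and 0 were called lower, where 7.59% were. The 10 were Cd79a, Fcer2a and Fcrla of the surface group, Lax1 and Btla of the signalling group, Tnfrsf13b, and the plasma cell members Mzb1, Jchain, Irf4 and Tnfrsf17. No transcription factor was called, and 3 of the 5 tested had an unadjusted p under 0.05. At an unadjusted p under 0.05 there were 26 of 33, where 14.7% of genes were higher. DESeq2 called 20 of 34 members higher, and 7.54% of genes. The median over the 33 was 1.98 on the log2 scale, and 0.0088 over all tested genes. In the T cell marker list, 6 of 10 tested genes were called higher in the same comparison, with a median of 1.66. T cells share Btla and Irf4 with B cells, and their part in these calls was not tested.

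Tnfrsf13b rose by 1.70 on the log2 scale (SE 0.25, edgeR adjusted p = 0.000588, higher in 6 of 6 libraries). Lax1 rose by 1.35 (SE 0.20, adjusted p = 0.000483) and Mzb1 by 1.29 (SE 0.22, adjusted p = 0.00154). These 3 and Btla, at 2.39 (SE 0.64, adjusted p = 0.0245), were the 4 members whose groups did not overlap, against 3.8% of all tested genes. Tnfrsf17 rose by 1.57 (SE 0.38, adjusted p = 0.0109) and Jchain by 0.87 (SE 0.25, adjusted p = 0.0302), each with 5 of 6 libraries above all Control-STAM-nonINS libraries. Fcer2a had the largest value, 4.05 (SE 1.21, edgeR adjusted p = 0.0411), but its exact permutation p was 0.129. With medians of 7.5 and 8 counts in the 2 control groups, it passed the low-count filter only through ieIRKO-STAM-INS libraries, where it was high. Its place among the 10 called members is therefore not independent of that filter. Cd79a, at 1.86 (adjusted p = 0.0487), Irf4, at 0.94 (adjusted p = 0.0416), and Fcrla, at 2.44 (adjusted p = 0.0282), completed the list. Their exact permutation p were 0.0667, 0.0524 and 0.0333. Over the 10 fits that left out 1 library, the call ended in 7 for Cd79a and for Irf4. It ended in 6 for Fcer2a, in 4 for Fcrla and for Jchain, and in 3 for Btla.

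Without replicates 2 and 3, 6 of 33 remained called, against 3.45% of genes: Lax1, Btla, Tnfrsf13b, Mzb1, Jchain and Tnfrsf17. At an unadjusted p under 0.05 there were 9, all higher, against 11.6% of genes. The log2 fold changes of the 6 were then 1.09, 0.92, 1.35, 1.30, 1.03 and 1.71. Over all 33 members the median was 0.03, with 19 positive. Over the 5 plasma cell members it was 1.03, and over the 11 of the surface group 0.08. Members of B cells did not share a direction without the pair. Of the surface group 8 of 11 were positive, with 1.06 for Fcrla, 1.03 for Fcer2a, 0.03 for Ms4a1 and -0.63 for Cr2, while 2 of 7 in the positioning group were, with -0.84 for Cxcr5 and -0.59 for Tnfrsf13c. None of these 6 was called (the smallest adjusted p was 0.0799, for Fcrla). Summed markers of follicular dendritic and lymphoid stromal cells were also lower without the pair. They had 154 to 167 CPM against 207 to 249 in Control-STAM-nonINS, with no overlap. The part of these cells in the negative values was not tested. Leaving out single libraries moved the count of 10 members between 4 and 15, lowest without Control-STAM-nonINS replicate 1 and highest without ieIRKO-STAM-INS replicate 4. It was 5 or 6 without replicates 2, 3 or 4 of Control-STAM-nonINS or replicate 3 of ieIRKO-STAM-INS. The low-count filter follows the smallest group, so leaving out any Control-STAM-nonINS library also changed the genes tested (34 members in place of 33), and with all libraries and no filter the count was 5.

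Markers of other cells moved with the pair. The summed level of 8 markers of follicular dendritic and lymphoid stromal cells was 751 and 570 CPM in ieIRKO-STAM-INS replicates 2 and 3, and 140 to 249 in the other 14 libraries, and 7 of the 8 were highest there. Cxcl13, the chemokine of stroma that Cxcr5 reads, had 35.9 and 28.0 CPM against 2.87 to 11.5 in the other 14. Clu, which follicular dendritic cells share with other cells, had 267 and 199.6 CPM against 25.3 to 58.1. For the T cell list, where 10 of 11 genes had counts, the sums were 118 and 112 CPM against 31.8 to 71.3, and 8 of the 10 were highest in the pair. Enterocyte markers had 19300 and 21519 CPM against 10145 to 38444, where 10145 was replicate 5 of the same group and the other 13 libraries had at least 20738. Smooth muscle markers were within the range of the others, at 3606 and 3269 against 2997 to 4543, and neither list had a gene with its 2 highest values there. Sums of follicle-associated epithelium and M cell markers, 259 and 247 CPM, also lay within the others' range of 155 to 374, with 2 of 8 genes highest in the pair. Mesenteric fat markers had 151 and 55.7 CPM against 30.4 to 338, and macrophage and dendritic cell markers 193 and 190.3 against 131 to 233, the latter with 3 of 8 genes highest in the pair. Paneth cell markers without the defensins had 1066 and 781 CPM against 1016 to 4820 in the other 14 libraries, so replicate 3 lay below all of them, with 1016 to 1453 in the other 4 ieIRKO-STAM-INS libraries. The part of these cells in the members' values was not tested.

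**Figure D4:**
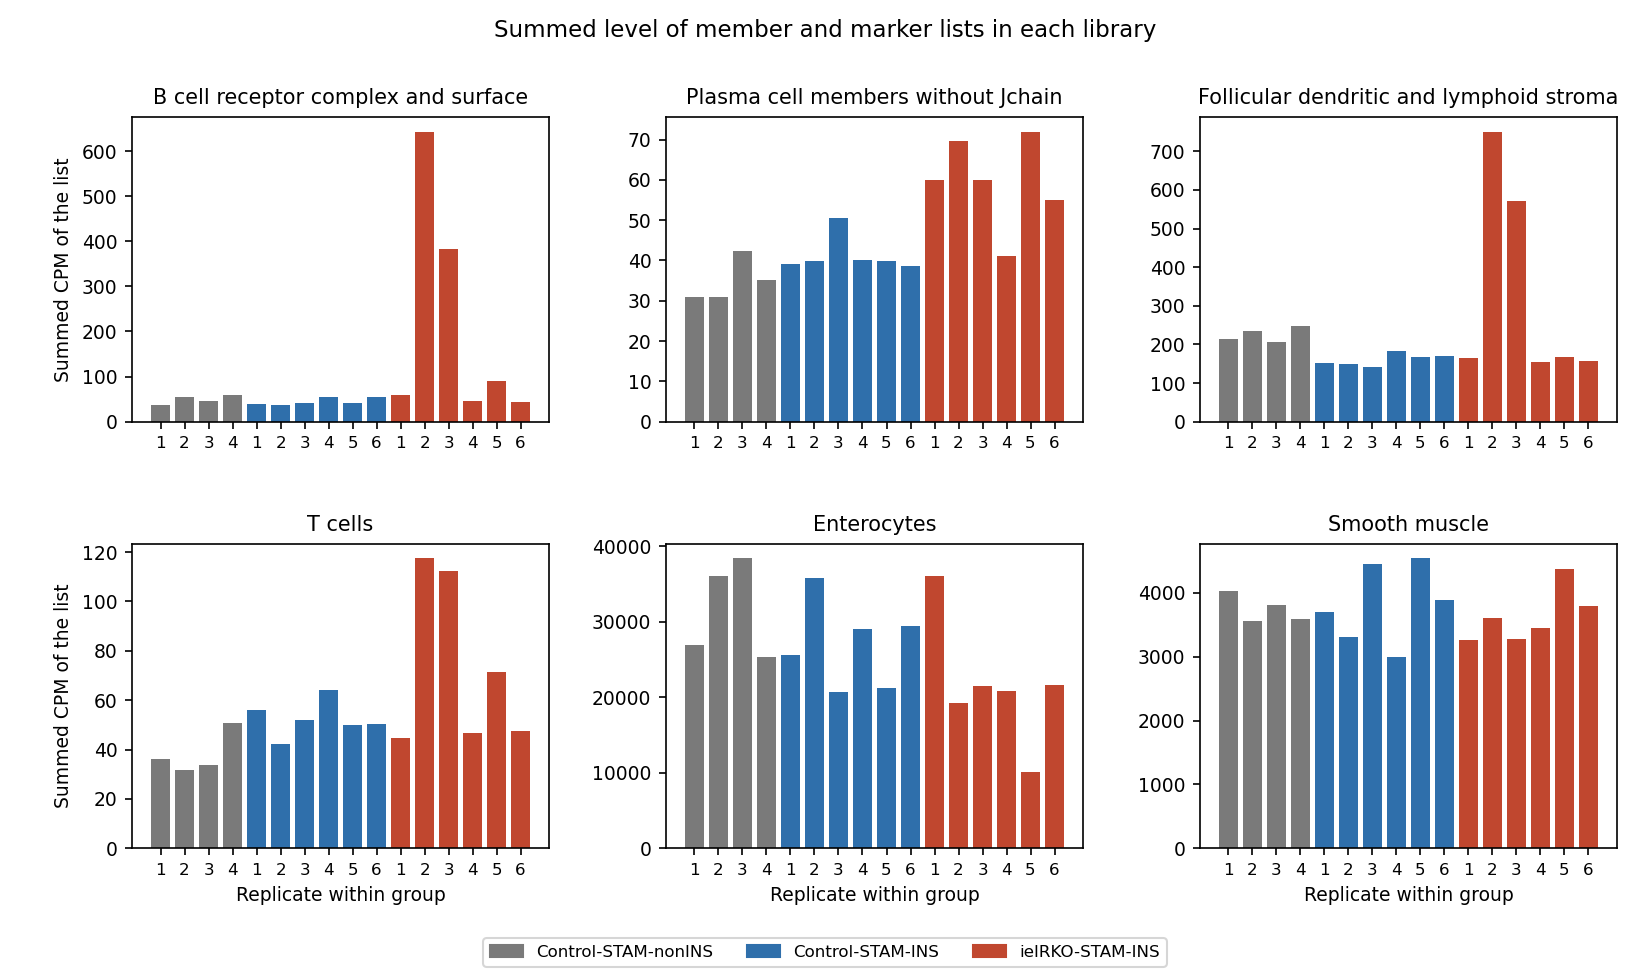
Summed CPM of 2 member groups and 4 marker lists in each library, coloured by group, each panel with its own axis from 0. The surface group and the follicular dendritic and lymphoid stroma list peak in ieIRKO-STAM-INS replicates 2 and 3 (643 and 384, 751 and 570 CPM), plasma cell members without Jchain do not, and smooth muscle stays within the range of the other libraries. Enterocytes are lowest in replicate 5 (10145 CPM), followed by replicate 2 (19300).

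Other genes of these pathways were taken from lists that hold no member. Of 16 genes of antigen receptor signalling, 12 had their 2 highest values in the pair. With both groups on insulin, ieIRKO against control, all 16 were positive and 0 were called in edgeR, with 8 at an unadjusted p under 0.05. Against Control-STAM-nonINS, 2 were called higher, among them Lyn, at 0.60, and 1 lower (Cd81, at -0.66), and with insulin in the control genotype Lyn rose (0.54) and Cd81 fell (-0.74). Without replicates 2 and 3, 10 of 16 were positive against Control-STAM-INS, and Lyn (0.46) and Cd81 (-0.69) were the 2 called against Control-STAM-nonINS.

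Of 12 further germinal centre genes, 3 had their 2 highest values in the pair, and the list's summed level was 316 and 279.6 CPM there against 209 to 267 in the other 14 libraries. In the tests, 10 of the 12 entered and 1 was called, Nuggc, higher against Control-STAM-nonINS (1.66, edgeR adjusted p = 0.00984, and 1.27 without the pair, edgeR adjusted p = 0.0342). Gcsam, a germinal centre marker, had 75 and 26 counts in the pair and 2 to 10 in each other library, while Rgs13 had 9.30 and 7.33 CPM against 2.81 to 8.48, and Sugct 1.15 and 2.40 CPM against 1.498 to 4.81. Of the proliferation genes in the list, Mki67 had 147 and 126 CPM in the pair against 93.7 to 128 elsewhere, and Aurkb 20.4 and 22.7 against 16.4 to 24.2. Mki67 had 0.08 and Aurkb 0.05 as log2 fold changes between the insulin-treated groups, and -0.034 and -0.011 without the pair.

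Of the 12 genes of plasma cell secretion, 0 had their 2 highest values in the pair. With insulin in the control genotype 3 were called higher (Slamf7, at 1.24, Creld2, at 0.72, and Edem1, at 0.37) and 1 lower (Sdc1, at -0.55, a plasma cell proteoglycan that epithelium makes in quantity). Between ieIRKO-STAM-INS and the untreated controls 5 were called higher, led by Slamf7 (1.79, edgeR adjusted p = 0.000507) and Derl3 (1.25, adjusted p = 0.0124), and Sdc1 was lower (-0.77). Between the insulin-treated groups 0 of 12 were called, with 4 at an unadjusted p under 0.05. Without the pair 6 were called higher and 1 lower against Control-STAM-nonINS, with Slamf7 at 1.70 and Derl3 at 1.31, and 0 against Control-STAM-INS, again with 4 at an unadjusted p under 0.05. In the list for homing to the gut and IgA transport, the integrin Itgb7 rose with insulin (1.11, adjusted p = 0.0226) and, with Ccr10 and Ccr9, was higher in ieIRKO-STAM-INS when set against untreated controls (1.73, 1.03 and 0.86). Without the pair Itgb7 (1.29) and Ccr10 (1.19) were still called there, and Ccr9 (0.81) had an edgeR adjusted p of 0.0561. T cells also use Itgb7 and Ccr9, and the T cell genes Cd3g, Cd3e and Cd8a rose with insulin in the control genotype (1.74, 1.47 and 1.33). Their part in these values was not tested.

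Of 12 ligands and partners of the member receptors, 7 had their 2 highest values in the pair: Cxcl13, the Ccr7 ligands Ccl19 and Ccl21a, Lta, Cd40, Cd40lg and Il21. Il21, the cytokine of follicular helper T cells, had 28 and 8 counts against 0 to 4, and Cd40lg, their signal to B cells, 19 and 11 against 0 to 3. Tnfsf13b (BAFF) rose with insulin in the control genotype by 1.19 on the log2 scale (SE 0.22, edgeR adjusted p = 0.00278, higher in 6 of 6 libraries), and was also higher in ieIRKO-STAM-INS relative to untreated controls (0.84, adjusted p = 0.0187, and 0.83 without the pair, adjusted p = 0.0495). In the pair it had 8.29 and 8.68 CPM, within the others' range of 3.37 to 16.2. Tnfsf13 (APRIL) had log2 fold changes of 0.03, -0.25 and -0.22 in the 3 comparisons and Tnfrsf14, the partner of Btla, 0.29, 0.0037 and 0.29, with no call. Ccl20, the ligand of Ccr6, ranged from 0.942 to 63.6 CPM over the 14 other libraries and had 5.26 and 6.04 in the pair. Ccl19 had 139 and 86 counts in the pair against 1 to 17, and Ccl21a 102 and 71.9 CPM against 20.5 to 58.5.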

How the data were processed

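RNA-seq was done on total RNA of the ileal whole wall of 16 mice, treated with DNase and made into directional libraries. The authors mapped reads to GRCm38 (mm10) in CLC Genomics Workbench and deposited 1 table per library, whose expression values are whole-number counts per gene, not normalized. Whether counting used strand, and how reads with several matches were treated, is not given in the sources used here. Groups were taken from the sample labels, which name the libraries biological replicates.

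Genes were filtered with filterByExpr (minimum count 10, minimum total 15), scaled by TMM, and fitted in the 3 groups together with edgeR 4.0.16 (robust quasi-likelihood test, R 4.3.3). P-values were adjusted by Benjamini-Hochberg over all 15267 tested genes, and a gene was called at an adjusted p under 0.05. Single values were also tested by exact two-sided permutation of libraries on log2 CPM with a prior count of 2. DESeq2 1.42.0, other normalizations and filters, a replicate block, the compared groups alone and leave-one-out fits were alternatives. The fit was tested on simulated data. Depth was 13288018 to 22215382 counts per library, so genes with a few counts are imprecise. The members and gene lists were chosen with earlier results of these data known. Full values are given for members that were called, for members whose libraries did not overlap between 2 groups, and for 12 members picked by stage, and ranges for the others. From the other lists, up to 5 called genes each and the ligands were named. Gcsam, Rgs13, Sugct, Clu, Mki67 and Aurkb, and the values of Pax5, Spib and Cd83, were added after their values were seen. Some genes of the other lists are not reported here. Gene positions came from GENCODE on GRCm38 and promoters from RefSeq on GRCm38.p6.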

Additional observations from a re-analysis of the deposited data

Results flagged for a closer look

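Within a group, 5 of 99 tests found a library set apart from the others of its group by Dixon's ratio (the gap to the nearest library over the whole range of the group), where chance gives 4.95. Cd79b was low in Control-STAM-nonINS replicate 1 (ratio 0.8778) and Pax5 in Control-STAM-nonINS replicate 3 (0.8412). In Control-STAM-INS, Fcrl1 was low in replicate 3 (0.7593), Mzb1 was high in replicate 3 (0.8083) and Cd37 was high in replicate 4 (0.6574). The ratio compares a single library with its nearest neighbour, so 2 high libraries together, as in ieIRKO-STAM-INS replicates 2 and 3, are not picked out by it.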

How the results depend on the processing

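The counts of called members (0, 1 and 10 in the order of the comparisons above) were the same with upper-quartile normalization and with immunoglobulin genes and Jchain left out of the library sizes. With no filter the count of 10 became 5, and with at least 10 counts in every library 8 of 23 tested. Fits of the compared groups alone gave 2 (1 higher, 1 lower), 1 and 4, and DESeq2 gave 2, 15 and 20 of 34, all higher. Replicate numbers did not pair the libraries (14 correlations of deviations, -0.094 to 0.18, 4 of them over 0.1), and a replicate block gave 1, 0 and 4. Leaving out single libraries gave 0 to 2, 1 to 2 and 4 to 15. Lax1 was called in every such fit against Control-STAM-INS. Against Control-STAM-nonINS, Lax1, Tnfrsf13b, Mzb1 and Tnfrsf17 were. With ieIRKO-STAM-INS replicates 2 and 3 left out together, an alternative chosen after seeing the data, the counts of 1 and 10 became 0 and 6. Without ieIRKO-STAM-INS replicates 2 and 3, 28 of 33 members were positive against Control-STAM-INS and 19 of 33 against Control-STAM-nonINS, where all 33 were with every library. Among the members followed through every alternative, against Control-STAM-nonINS Prdm1 ranged from -0.13 (without Control-STAM-nonINS replicate 4) to 0.22 and S1pr2 from -0.016 (without ieIRKO-STAM-INS replicate 2) to 0.38 over the fits that left out 1 library. Without both replicates 2 and 3, Cr2 was at -0.076 and Cxcr5 at -0.17 against Control-STAM-INS, and Cr2 at -0.63, Cxcr5 at -0.84 and S1pr2 at -0.048 against Control-STAM-nonINS. The cause was not tested. Over the values of those members and all alternatives, 685 kept direction and call, 54 lost the call, 26 gained it and 7 changed sign. That tally leaves out the other members, whose sign changes are in the counts of 28 and 19.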
